A study of Bos taurus with 18 samples.

Results

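A set of 49 genes was expressed at a lower level in every Droughtmaster leukocyte library than in any Red Angus or F1 library. They were chosen from 12326 genes that carried an Ensembl identifier and had a mean CPM (counts scaled to library size) of at least 1 over the 18 libraries, and they make up 0.398% of those genes. A gene was kept when its highest CPM among the 6 Droughtmaster libraries lay below its lowest CPM among the 12 Red Angus and F1 libraries. The choice therefore rests on the Droughtmaster values against both other groups. Those differences, and how many members passed the test across all features, are given below as a description only. F1 against Red Angus, which the choice did not order, is the comparison tested.

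The libraries came from blood leukocytes of 18 female cattle, all labelled as under heat stress, with 6 animals in each group. Red Angus is a Bos taurus beef breed, Droughtmaster is a composite breed from Bos indicus and Bos taurus cattle, bred for the tropics, and the F1 animals were labelled as a cross of both breeds. The labels give no age, batch or collection date, and no animal outside the heat stress condition was analysed here. The white cell layer of centrifuged blood holds neutrophils, lymphocytes, monocytes and smaller populations together. In such a bulk sample fewer cells of a type and less RNA per cell cannot be told apart, and this holds for every level below.

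Ensembl identifiers were not paired with gene names in the files, and of 27607 such identifiers 0 were found in the RefSeq gene table (assembly ARS-UCD2.0). The roles of the members, their positions and the cell type markers of the sample could therefore not be given, and the members are described by their levels, their variation and their inheritance. In a hybrid, a gene whose 2 parental copies each keep the output they have in the parent lies midway between the parents in RNA amount, which on a log scale is nearer to the higher parent. Dominance, or regulation by factors that act on both copies, can place it closer to either parent. The position of the F1 between the parents is a usual way to describe how a difference in expression is inherited.

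Separation in both directions was found for Droughtmaster, with 49 genes lower and 32 genes higher (0.26% of 12326) in every library. The same rule applied to the other groups kept 0 genes lower and 1 gene higher in every Red Angus library, and 0 genes lower and 2 genes higher in every F1 library. Every Droughtmaster library lay below every Red Angus library in 113 genes and below every F1 library in 118 genes, and the 49 members are the genes on both of these lists. They make up 43.4% of the first list and 41.5% of the second, and both lists share the same 6 Droughtmaster libraries.

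Libraries held between 11639027 and 24117615 counts. Droughtmaster replicate 3 stood apart, since 1 feature took 44.58% of its counts against at most 4.035% for the leading feature of each of the other 17 libraries. Its TMM scaling factor was 0.4238, whereas the factors of the other libraries ran from 0.7344 to 1.455. Without this library 46 genes met the rule, 41 of them among the 49 members. Scaling factors and filter were recomputed for this. At fixed CPM values, leaving out a library cannot by itself close the gap of a member. Without Red Angus replicate 4 or F1 replicate 2, 42 of the members were kept.

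Members were mostly well-expressed genes with a narrow spread between animals. Their mean level ran from 2.33 to 560 CPM with a median of 67.5, against a median of 19.3 over all 12326 genes. Only 4 members averaged under 10 CPM, 17 averaged 100 CPM or more, and 1 member had a library without any count. The median SD of log2 CPM between animals was 0.330 among Red Angus, 0.263 among F1 and 0.271 among Droughtmaster animals (n = 6 per group), against 0.708, 0.523 and 0.554 over all 12326 genes. In 39 of the 49 members the SD was below the median gene in all 3 groups. The rule favours such genes, because a wide spread makes the groups overlap.

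**Figure D1:**
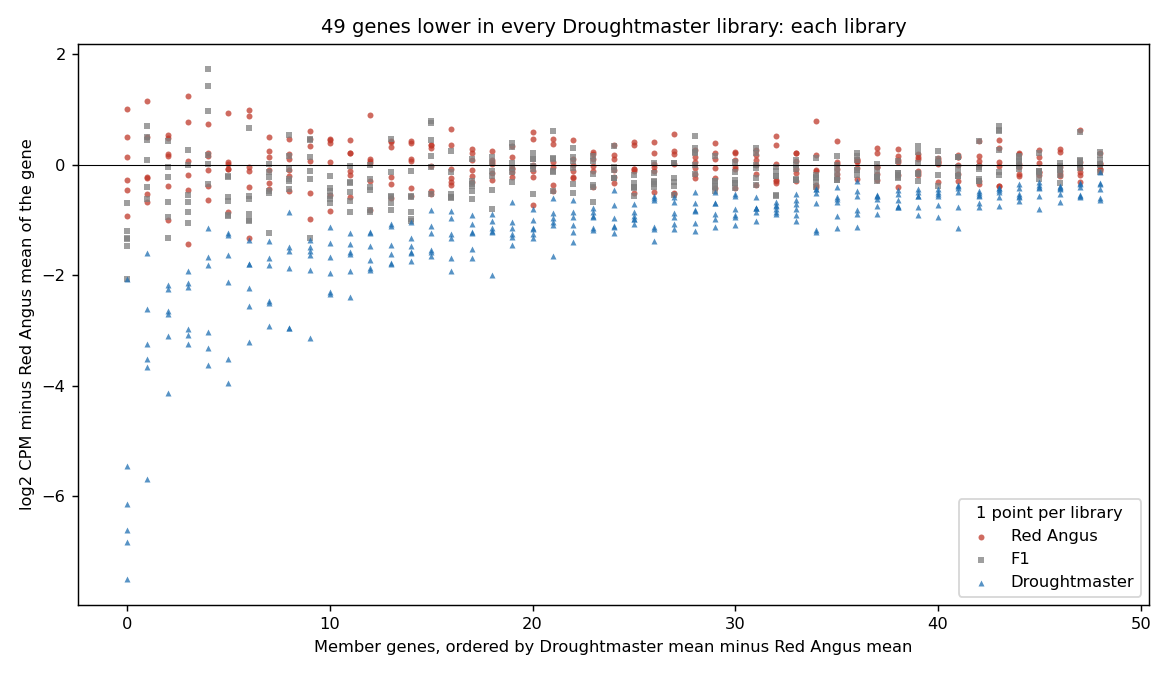
Log2 CPM of each member in each of the 18 libraries, given as the difference from the gene's Red Angus mean, with 1 column of points per gene and a different marker per group. All Droughtmaster points lie below all other points of their column, while Red Angus and F1 points overlap, and the distance shrinks from left to right.

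Fitted differences between Droughtmaster and Red Angus ran from -4.51 to -0.41 on the log2 scale, with a median of -0.95. The members thus range from genes with few counts in Droughtmaster libraries to genes with a small and even reduction. A reduction of 4-fold or more was fitted for 8 members, 2-fold to 4-fold for 15 and less than 2-fold for 26. In edgeR's quasi-likelihood test, with p adjusted over 14446 features, 37 of the 49 members passed as lower in Droughtmaster than in Red Angus, where 1.1% of all features passed as lower. Against the F1, 22 of the 49 passed, where 0.305% of all features passed as higher in the F1. Nothing is read from these shares, since the rule used both contrasts. Both tests were passed by 21 members and neither by 11. The count of 37 became 24 without Droughtmaster replicate 3, 24 without Droughtmaster replicate 6, and 16 in a fit of the 12 parental libraries alone. Over all features, in either direction, 376 calls became 149, 143 and 56 in these settings. The count of 22 became 12, 14 and 11 without F1 replicates 1, 2 and 4, 13 without Droughtmaster replicate 6, and 38 by DESeq2's Wald test. In the same order, 171 calls over all features became 65, 98, 91, 84 and 613. In these settings the member counts moved in the same direction as the calls over all features. This did not hold throughout. Without Droughtmaster replicates 4 and 5, the 171 calls became 276 and 189, while the 22 members became 19 and 17. Without Red Angus replicate 5, the 376 calls became 1407 and the 37 members 44.

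The widest separation belonged to ENSBTAG00000019406. It measured 7.998, 8.83, 18.1, 10.9, 28.5 and 10.8 CPM in Red Angus replicates 1 to 6, and 13.6, 9.62, 17.4, 18.2, 8.25 and 20.8 CPM in F1 replicates 1 to 6. In Droughtmaster it measured 4.16, 1.26, 0.140, 0.912, 1.01 and 2.00 CPM. The lowest of the other 12 libraries lay 1.92-fold above the highest Droughtmaster library, replicate 1. Red Angus and F1 libraries overlapped, with Red Angus replicate 5 above every F1 library, and their means were 14.2 ± 7.89 and 14.7 ± 5.02 CPM, against 1.58 ± 1.40 in Droughtmaster (SD, n = 6 each). The fitted log2 differences of this gene were -3.14 ± 0.508 for Droughtmaster minus Red Angus and 0.05 ± 0.460 for F1 minus Red Angus (SE; adjusted p = 0.9999 for the latter by edgeR's quasi-likelihood test).

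ENSBTAG00000021798 came next, a more abundant gene with a gap of 1.80-fold. Its Red Angus libraries held 200.4, 152.9, 157.6, 192.4, 105.2 and 68.5 CPM, and its F1 libraries 54.7, 184.8, 71.1, 133.7, 85.8 and 117.5 CPM. Its Droughtmaster libraries held 21.0, 28.6, 7.72, 21.7, 15.9 and 30.4 CPM. The lowest of these was replicate 3, the library with the dominant feature. The group means were 146.2 ± 50.9 CPM in Red Angus, 107.9 ± 47.6 among F1 animals and 20.9 ± 8.35 in Droughtmaster (SD, n = 6 each), with a fitted log2 difference of -2.80 ± 0.364 between the parents. For F1 minus Red Angus the fitted value was -0.44 ± 0.340, which did not pass (adjusted p = 0.9999 by edgeR's quasi-likelihood test). Both genes met the rule with DESeq2's size factors, with no scaling factor at all, and without each library in turn.

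**Figure D2:**
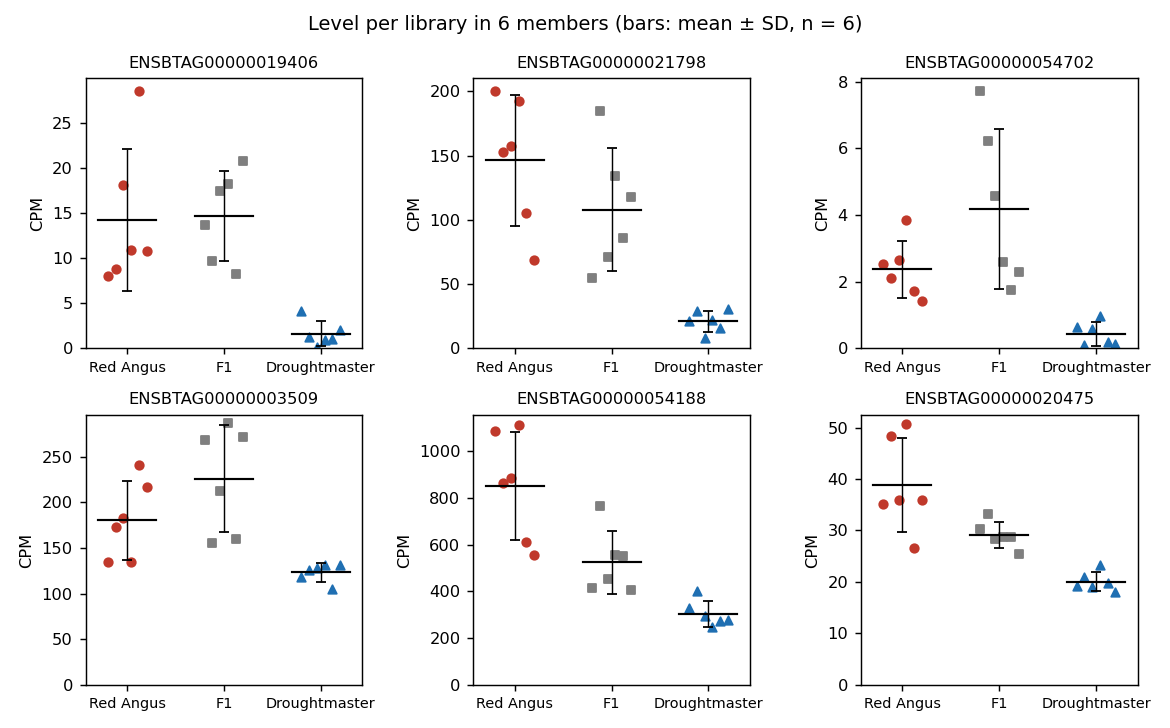
CPM per library in the 6 members named in the text, with 1 point per animal, a horizontal bar for the group mean and a vertical bar for ± SD (n = 6). Droughtmaster lies lowest in each panel, while the F1 lies at or above Red Angus in ENSBTAG00000019406, ENSBTAG00000054702 and ENSBTAG00000003509 and below it in the other 3.

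Most gaps were narrow. The ratio of the lowest other library to the highest Droughtmaster library had a median of 1.09. It reached 1.5 or more in 2 members and 1.2 or more in 13. Just inside the rule, the members with the smallest ratios had 4.56 against 4.57 CPM, 174.7 against 175.4 CPM and 135.6 against 136.5 CPM in the libraries that face each other across the gap. Just outside, the nearest genes had 6.595 against 6.590 CPM, 328.8 against 327.5 CPM and 270.8 against 269.5 CPM. The membership of these genes thus turns on differences far smaller than the spread between animals.

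The member nearest to the threshold also had the largest fitted difference between Droughtmaster and Red Angus, -4.51 on the log2 scale. Its level was 0.063, 0.167, 0, 0.336 and 0.092 CPM in Droughtmaster replicates 1 to 5 and 4.56 CPM in replicate 6. The F1 libraries held 4.57, 8.39, 11.9, 7.57, 6.96 and 7.71 CPM, and the Red Angus libraries 14.1, 39.2, 16.0, 21.4, 27.7 and 10.2 CPM. Droughtmaster replicate 6 thus lay just below the lowest F1 library, while the other 5 were at or close to 0. The F1 mean of 7.86 ± 2.39 CPM lay below the Red Angus mean of 21.4 ± 10.6 CPM (SD, n = 6 each), with overlap only between the highest F1 and the lowest Red Angus library. The fitted F1 minus Red Angus difference, -1.45 ± 0.718 on the log2 scale, was the most negative among the members and did not pass (adjusted p = 0.9999 by edgeR's quasi-likelihood test).

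Single libraries bounded the set unevenly. The highest Droughtmaster value belonged to replicate 1 in 13 members, to replicate 2 in 11, to replicate 4 in 10 and to replicate 5 in 9. It belonged to replicates 3 and 6 in 3 members each. The lowest Droughtmaster value was that of replicate 3 in 17 members and that of replicates 5 and 6 in 11 each. On the other side of the gap, a Red Angus library was lowest in 20 members and an F1 library in 29. Red Angus replicate 5 alone took 11 of these 20, and F1 replicate 6 took 10 of the 29. Red Angus replicate 5 had the highest scaling factor of its group, 1.431 against 0.7344 to 1.016 in the other 5. The part of the scaling in these counts was not tested.

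With DESeq2's size factors in place of TMM, 44 genes met the rule and 38 of the 49 members were among them. With no scaling factor only 14 genes met it, 10 of them members. Leaving out a library gave between 46 and 106 genes and kept between 41 and 49 of the members, with the largest counts, 106 and 85, without Droughtmaster replicates 5 and 1. A total of 35 members met the rule without each of the 18 libraries in turn, with DESeq2's size factors and with no filter on low counts. At fixed CPM values, leaving out a library can only widen the gap of a member. Members could be lost there only because scaling and filter were recomputed, so being kept in those settings says little. The 14 members lost in at least 1 of these settings all had a gap ratio of at most 1.09. Narrow gaps also occurred among the 35 retained, whose ratios ran from 1.004 to 1.92. The setting with no scaling factor is not among these. It lost 39 members, with ratios up to 1.30, and 8 of the 35 were kept when it was added. The 35 retained members had a median log2 difference of -0.95 between Droughtmaster and Red Angus, and their mean level ran from 2.33 to 512 CPM.

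**Figure D3:**
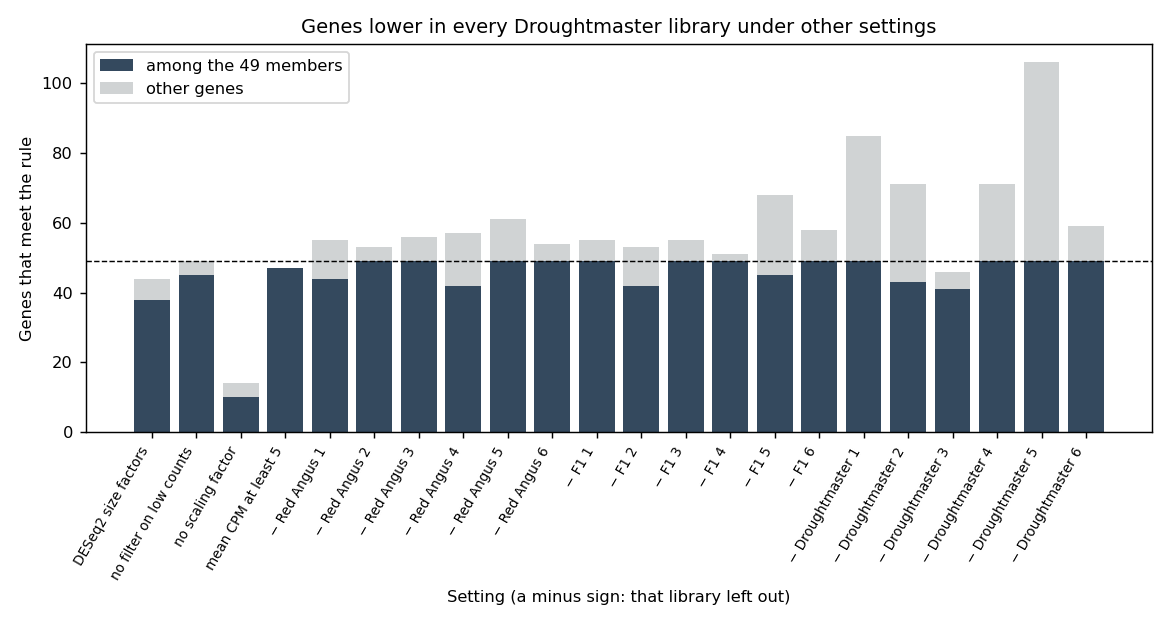
Number of genes that met the rule when the scaling, the filter or the minimum level was changed or 1 library was left out. The dark part of each bar counts genes among the 49 members and the light part other genes, and the dashed line marks 49. The dark part stays between 41 and 49 when a library is left out and drops to 10 with no scaling factor.

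Between the F1 and Red Angus, which the rule did not compare, 0 of the 49 members and 0 of 14446 features (0%) passed edgeR's quasi-likelihood test after adjustment. DESeq2's Wald test called 0 members and 1 other feature. At an unadjusted p under 0.05 there were 2 members, or 4.08%, and 3.23% of all features. No member had the F1 and Red Angus libraries separated without overlap in either direction. Among all 12326 genes, 3 had every F1 library below every Red Angus library and 3 the reverse. Such genes are so rare that their absence among the members says nothing particular about the members. Fitted differences of the members ran from -1.45 to 0.82 on the log2 scale, with a median of -0.14 and a median SE of 0.206. The F1 value was below Red Angus in 37 members and above it in 12. Over all 12326 genes the fitted difference was below 0 in 56.9%, and over all 14446 features its median was -0.05. Differences of the size of these SEs were not detectable in a single member at this number of animals.

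The most abundant member, ENSBTAG00000054188, had the smallest p among the members with the F1 lower. Its Red Angus libraries held 1085, 863.4, 883.9, 1110, 612.6 and 554.5 CPM and its F1 libraries 414.6, 763.8, 452.8, 557.1, 550.2 and 405.0 CPM. Droughtmaster held 327.9, 401.2, 296.4, 246.2, 272.7 and 275.2 CPM, so that the F1 lay between the parental groups. The F1 libraries were below every Red Angus library in 4 of 6 animals, and F1 replicate 2 was the highest of its group. The group means were 851.7 ± 231.6, 523.9 ± 134.5 and 303.3 ± 55.2 CPM (SD, n = 6 each). The difference of F1 minus Red Angus was -0.70 ± 0.243 on the log2 scale, with an unadjusted p of 0.00911 and an adjusted p of 0.9999 by edgeR's quasi-likelihood test. This gene did not meet the rule with DESeq2's size factors.

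ENSBTAG00000020475 was the other member with an unadjusted p under 0.05. It measured 35.1, 48.4, 36.0, 50.8, 26.6 and 36.0 CPM in Red Angus animals, 30.2, 33.3, 28.4, 28.7, 28.7 and 25.5 CPM in F1 animals and 19.2, 21.0, 19.1, 23.2, 19.8 and 18.01 CPM in Droughtmaster. Within the F1 and within Droughtmaster the animals were close together, at 29.2 ± 2.55 and 20.1 ± 1.83 CPM, while Red Angus measured 38.8 ± 9.10 CPM (SD, n = 6 each). Red Angus replicate 5 fell among the F1 libraries. The difference of F1 minus Red Angus was -0.41 ± 0.186 (log2, SE; unadjusted p = 0.0381, adjusted p = 0.9999 by edgeR's quasi-likelihood test).

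In the other direction, ENSBTAG00000054702 had the smallest p. This low-abundance gene held 2.52, 2.10, 2.63, 3.84, 1.71 and 1.42 CPM in Red Angus animals, 7.72, 6.22, 4.56, 2.58, 1.76 and 2.28 CPM in F1 animals and 0.630, 0.084, 0.561, 0.961, 0.183 and 0.130 CPM in Droughtmaster. F1 replicates 1 to 3 lay above every Red Angus library and replicates 4 to 6 among them. The difference of F1 minus Red Angus was 0.82 ± 0.488 on the log2 scale (adjusted p = 0.9999 by edgeR's quasi-likelihood test). Its Droughtmaster values rest on 42 counts over the 6 libraries.

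ENSBTAG00000003509 followed, at 134.6, 172.9, 182.9, 134.4, 241.0 and 216.7 CPM in Red Angus and 268.7, 155.4, 212.0, 286.6, 160.3 and 272.0 CPM in the F1. Its Droughtmaster libraries lay close together, at 118.1, 125.4, 127.8, 131.8, 104.7 and 131.5 CPM, just below the lowest Red Angus libraries. The difference of F1 minus Red Angus was 0.32 ± 0.213 on the log2 scale (adjusted p = 0.9999 by edgeR's quasi-likelihood test). The F1 mean of 225.8 ± 58.5 CPM was the highest of the 3 groups, with Red Angus at 180.4 ± 43.1 and Droughtmaster at 123.2 ± 10.4 CPM (SD, n = 6 each). It did not meet the rule with DESeq2's size factors, and met it in 13 of the 18 sets with a library left out.

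On the log2 scale the F1 mean lay closer to the Red Angus mean than to the Droughtmaster mean in all 49 members, and on the CPM scale in 46. On a scale of log2 CPM where 0 is the Droughtmaster mean and 1 the Red Angus mean, the F1 mean had a median position of 0.815, with a range from 0.528 to 1.61. It lay above 0.5 and up to 0.75 in 17 members, above 0.75 and up to 1 in 20 and above 1 in 12. The same position computed from mean CPM, where a sum of unchanged parental outputs would give 0.5, had a median of 0.763 and a range from 0.340 to 1.93. ENSBTAG00000054188, ENSBTAG00000020475 and the member nearest to the threshold were the 3 members below 0.5 on that scale. Without each library in turn the log2 position was above 0.5 in 48 or 49 members, and with DESeq2's size factors in 49. The median log2 position per F1 animal was 0.715, 1.00, 0.820, 0.944, 0.738 and 0.754 in replicates 1 to 6, and the 6 Droughtmaster animals lay between -0.143 and 0.159. Red Angus animals lay between 0.741 and 1.103. Replicate 5, the lowest, and replicate 6, at 0.948, fell among the F1 animals.

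The rule has a part in this, since a gene with F1 animals at Droughtmaster levels cannot be a member. Among the 113 genes chosen on the parents alone, by every Droughtmaster library below every Red Angus library, the log2 position was above 0.5 in 106, with a median of 0.765, and the CPM position in 90, with a median of 0.664. Of the 64 that were not members, 57 were above 0.5 on the log2 scale (median 0.705) and 44 on the CPM scale (median 0.611). These positions share the Droughtmaster and Red Angus libraries that chose the genes, and no test was made of them.

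**Figure D4:**
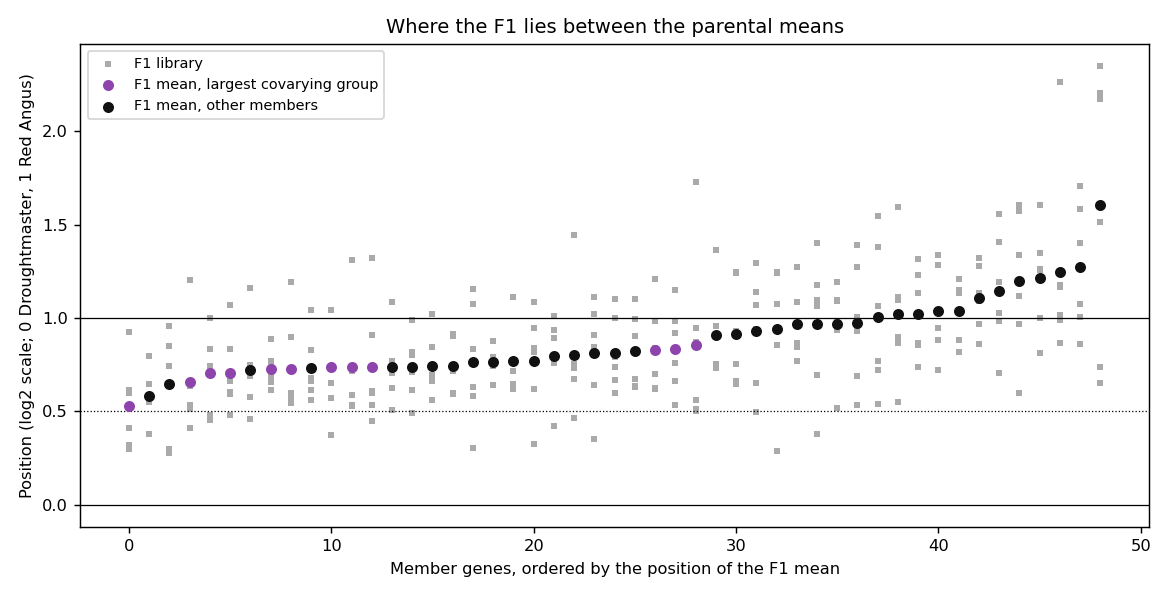
Position of the F1 between the parental means for each member, on the log2 CPM scale, with 0 at the Droughtmaster mean and 1 at the Red Angus mean (solid lines) and 0.5 midway (dotted line). Large points are F1 means, coloured by covarying group, and small squares are the 6 F1 libraries. All 49 means lie between 0.528 and 1.61, and the largest covarying group lies at or below 0.854.

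Some members varied together between animals of the same breed. Deviations of log2 CPM from the breed means correlated with a median Pearson r of 0.138 over all pairs of members, against 0.002 over all pairs of the 12326 genes (quartiles -0.374 and 0.382). These are descriptions over 18 libraries, which share their scaling. Average-linkage clustering of the members at a tree height of 0.5 gave a largest group of 12 members and a second of 5, with the height chosen after the values were seen. Within the group of 12 the median r was 0.610 and the lowest 0.193, and against the other 37 members its median r was 0.157. The groups were formed from these same correlations, so a high r within and a lower r outside is built in. No other set of genes was clustered for comparison. ENSBTAG00000021798 and ENSBTAG00000054188 both belonged to the group of 12.

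**Figure D5:**
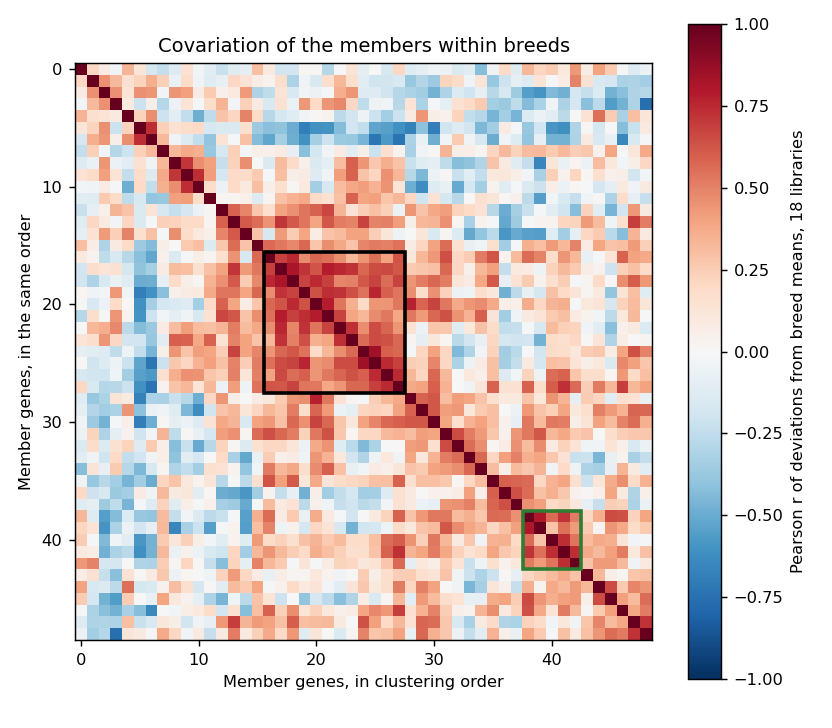
Pearson r between the members' deviations from their breed means over 18 libraries, with the genes in clustering order on both axes. The black square encloses the group of 12 members (median r 0.610) and the green square the group of 5 (median r 0.561).

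The 12 covarying members had a larger median fitted difference between the parents than the others and a lower median F1 position. Their median log2 difference was -1.41 for Droughtmaster minus Red Angus, against -0.93 in the other 37 members. The ranges overlapped, from -2.80 to -0.61 in the 12 and from -4.51 to -0.41 in the other 37. The mean level of the 12 ran from 43.8 to 560 CPM. The fitted F1 value was below Red Angus in all 12, with a median of -0.37, and in 25 of the other 37, with a median of -0.09. The log2 position of the F1 had a median of 0.731 in the group of 12, with 0 members above 1, and of 0.914 in the other 37, with 12 above 1. On the CPM scale these medians were 0.629 and 0.890. The 12 genes are not independent of each other, and their difference from the other members was not tested.

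Animals of 1 breed differed widely in the level of these 12 genes. The median of the group, as log2 CPM relative to the Red Angus means, was 0.432, 0.204, -0.062, 0.177, -0.404 and -0.407 in Red Angus replicates 1 to 6. It was -0.529, 0.160, -0.475, -0.324, -0.521 and -0.504 in the F1 animals, where replicate 2 stood alone. In Droughtmaster it was -1.08, -0.966, -1.57, -1.43, -1.64 and -1.18. For the other 37 members the corresponding ranges were narrower, from -0.210 to 0.076 for Red Angus, from -0.200 to 0.016 for the F1 and from -1.07 to -0.727 for Droughtmaster. The 12 were grouped by their shared variation over these same libraries. Their median therefore varies more between animals by construction, and nothing is read from this contrast.

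Outside Droughtmaster, the libraries with the fewest features with any count had the highest levels of the group of 12. The 4 libraries with the fewest such features were F1 replicate 2 with 15507 and Red Angus replicates 2, 4 and 1 with 15790, 15855 and 16924. The same 4 libraries had the highest levels of the group, from 0.160 to 0.432. Among the remaining Red Angus and F1 libraries the level did not follow the number of features. It was -0.062 at 17606 features in Red Angus replicate 3, -0.521 at 17800 in F1 replicate 5 and -0.404 at 19096 in Red Angus replicate 5. Red Angus replicates 1 and 4 also had the lowest scaling factors outside Droughtmaster, 0.7344 and 0.7704. Droughtmaster libraries had between 17084 and 19605 features with counts. The parts of the number of features and of the scaling in the level of the group were not tested.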

How the data were processed

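The authors deposited raw counts per gene for 18 libraries. The submitters' processing notes name the tools DESeq2 1.16.1, featureCounts 1.5.0-p3 and HISAT2 2.0.5 and the build ARS-UCD1.2. Annotation release and strandedness were not given in the sources used here, and antisense overlaps cannot be told apart. All 18 count columns matched a sample by title, and groups follow the breed label, with replicates numbered in accession order. All 153 pairs of libraries differed beyond counting noise (chi-square divided by its degrees of freedom was at least 51.84).

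Of 30162 features, 27607 carried an Ensembl identifier. In R 4.3.3 with edgeR 4.0.16, filterByExpr by breed left 14446 features (13439 with an identifier), scaled by TMM, and 12326 with an identifier averaged at least 1 CPM. All 18 libraries entered 1 quasi-likelihood fit with 3 group means and robust estimation, two-sided, with a Benjamini-Hochberg threshold of 0.05. Log2 CPM used a prior count of 2. SEs came from the F statistic. The scripts were tested on simulated counts. Alternatives were DESeq2 1.42.0 (size factors, Wald test), no filter, no scaling, other minimum levels and prior counts, fits of 2 groups, and each library left out.

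The members and lists were chosen with earlier results of these data known. The 29 gene lists could not be used, because 0 had a matched member. Without symbols, the naming rule allowed 2 identifiers per direction: the 2 members with the widest gap, and for F1 against Red Angus the 2 with the smallest p in each direction. Members described without an identifier were picked for their place in the set after the values were seen. Whether members have near-identical copies elsewhere was not assessed. It was also not assessed whether reads of each breed mapped equally well to the named build.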

Additional observations from a re-analysis of the deposited data

Results flagged for a closer look

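In the F1, replicate 2 lay apart in the level of the 12 covarying members: its median was 0.160 on the log2 scale relative to the Red Angus means, against -0.529 to -0.324 in the other 5 animals. Features with any count were also fewest in this animal, at 15507, and the part of that in its level was not tested. The member nearest to the threshold stood at 4.56 CPM for replicate 6 of Droughtmaster, where the other 5 animals did not exceed 0.336 CPM. Over all members and groups, 13 of 147 sets of 6 libraries (8.84%) held a highest or lowest library whose gap to the nearest other exceeded 0.625 of the whole range, 8 of them F1, 4 Red Angus and 1 Droughtmaster. Chance gives about 1 in 20 at that limit for independent sets. These sets share the same 18 libraries, and the rule removes genes with a high Droughtmaster library. The shares are therefore not compared with that rate or with each other.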

How the results depend on the processing

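Of 422 recomputed values, 387 were classed as the same and 35 as moved. Named genes had to keep both their direction and their side of the threshold, and counts had to stay within 1.5 times. The median position and median fold change could shift by up to the SD between F1 libraries. The median SDs within breeds could shift by up to the SD between members. None reversed. The set of 49 members became 14 with no scaling factor and 46 to 106 without 1 library. With DESeq2's size factors, the 1 gene higher in every Red Angus library became 0. For Droughtmaster minus Red Angus, 376 features and 37 members were called. These became 56 and 16 with only the 2 groups in the fit. The features called were 236 with no filter and 1037 by DESeq2's Wald test. Leaving out 1 library gave 143 to 1407 features and 24 to 44 members. For F1 minus Droughtmaster, 171 features and 22 members became 613 and 38 by DESeq2's Wald test, and 65 to 335 and 11 to 24 without 1 library. The member count was 12, 14, 11 and 13 without F1 replicates 1, 2 and 4 and Droughtmaster replicate 6. The features called in these settings were 65, 98, 91 and 84. For F1 minus Red Angus, features called went from 0 to 1 by DESeq2's Wald test. The cause was not tested for any of these. The F1 position had a median of 0.780 to 0.899 without 1 library, 0.824 with a prior count of 0.5, and 0.763 on the CPM scale, an alternative chosen after seeing the data. No paired analysis was made, because the 3 groups hold different animals and the labels used here pair none of them. P-values weigh a difference between group means against the spread between animals, with 6 animals per group. In the main fit that spread was estimated over all 18 libraries, so a comparison of 2 groups also drew on the third group.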

Other observations

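Among 714 unannotated loci with a mean of at least 1 CPM, which the choice of the 49 members left out, 1 was lower and 6 were higher in every Droughtmaster library than in all other libraries.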
